A study of Mus musculus with 6 samples.

Results

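Iron handling was examined through 10 genes in sorted mouse astrocytes: the export genes Slc40a1, Cp and Heph, the uptake genes Trf, Tfrc, Steap3, Steap4 and Slc11a2, and the ferritin genes Fth1 and Ftl1. The members were taken by gene symbol from a table of 45777 genes, and all 10 were found and had reads in every sample. The rule used gene symbols and no measured value. They were compared between astrocytes of hyperglycemic and normoglycemic mice, the comparison the study was built on.

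Cells take up iron mainly as transferrin bound to the transferrin receptor. In the endosome the iron is released, reduced by a STEAP ferrireductase and carried into the cytosol by DMT1, the product of Slc11a2. Iron that is not used is stored in ferritin, a shell of heavy and light chains, or leaves the cell through ferroportin with the help of a ferroxidase. Iron regulatory proteins adjust this balance by binding hairpins, called iron-responsive elements, in the mRNAs: a hairpin in the 5′ UTR blocks translation when iron is low, and hairpins in the 3′ UTR protect the mRNA. Astrocytes are known to carry ceruloplasmin, a ferroxidase, on their surface, and in brain transferrin is made largely by oligodendrocytes and the choroid plexus.

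The astrocytes came from male Aldh1l1-CreERT2; tdTomato fl/fl mice on a C57BL/6 background, whose cells turn red with tdTomato once tamoxifen activates a Cre made under the Aldh1l1 promoter. Tamoxifen was given at 75 mg/kg on 5 days. Vehicle and STZ mice alike carried these alleles and received tamoxifen, while the sample labels give the genotype only as WT. At 8 weeks of age the STZ group received a single injection of streptozotocin (150 mg/kg), a toxin of insulin-producing beta cells, and the vehicle group received citrate buffer. STZ mice were kept if their blood glucose exceeded 250 mg/dl on day 5, and brains were taken 21 days after injection. Cells were sorted on tdTomato, so a library could hold any cell with Cre activity or carried along in the sort. Each of the 3 samples per group was a pool of cells from 3 mice, so the p-values measure the spread between pools.

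Total read counts lay between 52529048 and 58749115 per sample, and 22337 genes had at least 1 count in every sample and were tested. The 10 astrocyte markers, Aldh1l1, Aqp4 and Slc1a2 among them, summed to 22862.8 to 26455.5 normalized CPM in vehicle and 22729.8 to 24614.3 in STZ samples. These sums overlapped, but Aldh1l1, Aqp4 and Slc1a2 were each lower in every STZ sample (edgeR log2 fold change -0.22, -0.48 and -0.11). Gjb6 was higher in every STZ sample (0.27). Of the 10, 6 had lower and 4 higher estimates in STZ, and 3 had an unadjusted edgeR p under 0.05. Normalized CPM is the read count scaled to the library's size after TMM normalization in edgeR, and all levels below are on this scale unless FPKM is named. Markers of other cells were present in all libraries. Their summed CPM in vehicle and STZ samples were, for oligodendrocytes, 1104.4 to 2870.7 and 1327.5 to 3590.2. For microglia they were 835.3 to 1203.2 and 818.9 to 1135.6. For the choroid plexus they were 6029.4 to 17722.4 and 9113.7 to 15740.6, most of it Ttr. Neutrophil markers summed to 156.9 to 917.2 and 508.8 to 1192.2, and no marker of any list was at 0 in all samples. In such bulk samples, fewer cells of a type and less RNA per cell cannot be told apart.

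Iron-responsive elements are shown first, because the search for them used sequence and no measured level. A hairpin was searched as an unpaired C, a stem of 5 bases, the loop CAGTGN and a second stem of 5 bases pairing with the first, with G-T pairs and at most 1 mismatch allowed. The search covered the sense strand of GENCODE M21 transcripts (GRCm38, the same assembly as mm10). Of 10 members, 3 held it in a 5′ UTR (Fth1, Ftl1 and Slc40a1) and 2 in a 3′ UTR (Tfrc and Slc11a2). Among 21842 protein-coding genes the shares were 0.939% (205 genes) for the 5′ UTR and 3.99% (872 genes) for the 3′ UTR. Capitals mark the loop in the sequences below, which run 5′ to 3′ along the mRNA.

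Fth1, 5′ UTR, chr19:9982732-9982761, plus strand: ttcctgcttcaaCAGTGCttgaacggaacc
Ftl1, 5′ UTR, chr7:45459778-45459807, minus strand: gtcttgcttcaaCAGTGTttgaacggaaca
Slc40a1, 5′ UTR, chr1:45925464-45925493, minus strand: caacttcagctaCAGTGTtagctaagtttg
Slc11a2, 3′ UTR, chr15:100395152-100395181, minus strand: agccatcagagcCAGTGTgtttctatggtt
Tfrc, 3′ UTR, chr16:32631219-32631248, plus strand: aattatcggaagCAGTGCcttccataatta
Tfrc, 3′ UTR, chr16:32631598-32631627, plus strand: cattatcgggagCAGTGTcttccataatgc
Tfrc, 3′ UTR, chr16:32631663-32631692, plus strand: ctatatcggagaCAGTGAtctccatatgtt
Tfrc, 3′ UTR, chr16:32631710-32631739, plus strand: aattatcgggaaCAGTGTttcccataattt

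The Slc11a2 site had 1 mismatch in the stem and the others none. Heph, with 1 mismatch, matched in its coding sequence. Trf, Cp, Steap3 and Steap4 had no match, which says only that these letters were not found in the transcripts searched. A match is a likeness of sequence, and binding was not measured here.

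Between genes, levels were compared per length, in FPKM, the authors' fragment counts scaled by transcript length and library size. Fth1 led with 1710.2 ± 335.1 FPKM (SD, n = 6) and was rank 18 of all genes by mean TPM. Ftl1 followed at 806.5 ± 100.5 FPKM (rank 55) and Trf at 151.6 ± 48.0 FPKM (rank 380). The ferritin chains and transferrin thus stood well above the transporters and enzymes. Tfrc had 18.0 ± 1.2 FPKM and Slc11a2 13.2 ± 0.819 FPKM. Heph (6.57 ± 0.737), Steap3 (6.31 ± 1.58) and Slc40a1 (5.12 ± 1.37 FPKM) were neighbours whose ranges overlapped: Heph exceeded Steap3 in 3 of 6 samples, and Steap3 exceeded Slc40a1 in 4 of 6. Cp had 1.83 ± 0.785 FPKM and Steap4 0.532 ± 0.503 FPKM, with overlapping ranges, although Cp was the higher in 6 of 6 samples. Every other pair of neighbours in this order had ranges that did not overlap.

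**Figure D1:**
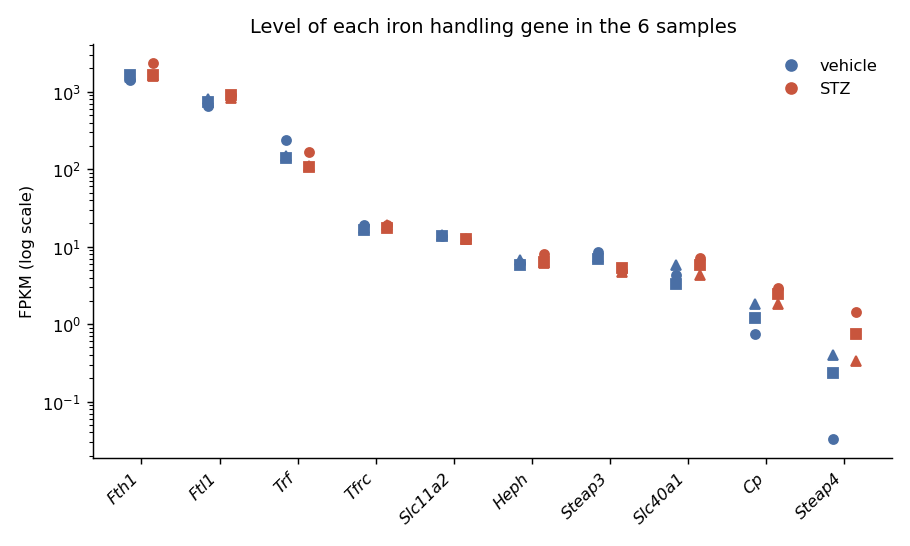
FPKM of each iron handling gene on a log axis, with 1 point per sample (blue, vehicle; red, STZ; circles, squares and triangles are replicates 1, 2 and 3). The ferritin genes and Trf lie above 100 FPKM in every sample, Tfrc and Slc11a2 between 10 and 20, and Steap4 spans more than an order of magnitude.

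A gene was called when its adjusted p in edgeR's quasi-likelihood test (Benjamini-Hochberg over all 22337 genes) was under 0.05 and its fold change over 1.5. By this rule 0 of 10 members were called, where 5 of all genes tested were (0.0224%). At an unadjusted p under 0.05 there were 4 of 10 members: Cp and Steap4 higher in STZ astrocytes, Slc11a2 and Steap3 lower. The share over all genes was 11.3%. DESeq2, the count model the authors used, called 1 of 10 members, Steap3, against 1.05% of all genes. The STZ and vehicle samples did not overlap for 3 of 10 members (Ftl1 higher, Slc11a2 and Steap3 lower), against 18.5% of all genes. Over the members 7 estimates were positive and 3 negative, with a median log2 fold change of 0.14 beside 0.012 for all genes.

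**Figure D2:**
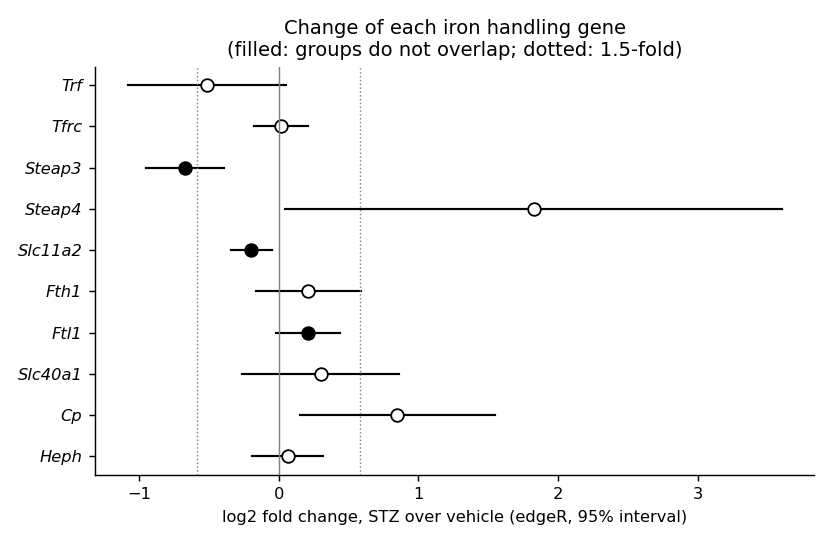
Log2 fold change of STZ over vehicle for each member, with its 95% interval from edgeR; filled points mark genes whose groups do not overlap, and dotted lines mark 1.5-fold. Steap3 lies furthest below 0 at -0.67, and Steap4 has the largest estimate, 1.83, with the widest interval, 0.047 to 3.60.

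Steap3, the ferrireductase of the transferrin endosome (chromosome 1, 120226414 to 120271081), had the smallest edgeR p of the members. Its level was 26.0, 20.4 and 22.2 CPM in the vehicle samples and 14.0, 15.4 and 13.7 CPM in the STZ samples. Every STZ sample lay below every vehicle sample. The means were 22.9 ± 2.84 and 14.4 ± 0.913 CPM (SD, n = 3 each), a 1.59-fold lower level in STZ. The log2 fold change was -0.67 (SE 0.12, 95% interval -0.95 to -0.39), with an adjusted p of 0.186 in edgeR and 0.000831 in DESeq2. It fell, then, by DESeq2 and did not pass in edgeR, where its unadjusted p was 0.000618. In DESeq2 fits with 1 sample left out it was called in 5 of 6. Without vehicle replicate 1, the highest sample, its adjusted p stayed under the threshold but the log2 fold change was -0.56, short of 1.5-fold. Summed border macrophage markers were 39.7, 21 and 28.3 CPM in vehicle and 20.9, 22.8 and 14.0 CPM in STZ. Their order of samples was near that of Steap3, but STZ replicate 2 lay above vehicle replicate 2, so these groups overlapped. Of those 5 markers, 4 had lower estimates in STZ, and Mrc1 (-0.82) and Cd209f (-1.79) passed in DESeq2, with adjusted p of 0.0329 and 4.27e-05. Mrc1 and Cd209f each had every STZ sample below every vehicle sample, while Pf4, Lyve1 and Clec10a overlapped. Clec10a, the marker with a higher estimate (0.11), was 7.85 CPM in STZ replicate 2 and 4.03 CPM in vehicle replicate 2. The astrocyte markers Aldh1l1, Aqp4 and Slc1a2 also had every STZ sample below every vehicle sample. Aqp4 had an adjusted p of 0.0169 in DESeq2 at a log2 fold change of -0.48, under the fold threshold. Of the 10 astrocyte markers, 6 had lower and 4 higher estimates in STZ. The part of border macrophage or astrocyte RNA in the Steap3 result was not tested.

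Steap4, a ferrireductase of the plasma membrane that is induced in inflammation (chromosome 5, 7960472 to 7982213), went the other way from a far lower level. Its read counts were 7, 42 and 79 in vehicle and 283, 144 and 66 in STZ samples, or 0.131, 0.809 and 1.38 against 4.67, 2.47 and 1.12 CPM. STZ replicates 1 and 2 were the highest, and STZ replicate 3 lay below vehicle replicate 3, so the groups overlapped. The means were 0.773 ± 0.625 and 2.75 ± 1.79 CPM (SD, n = 3 each). The log2 fold change was 1.83 (SE 0.76), and neither tool passed it (edgeR adjusted p = 0.434, DESeq2 adjusted p = 0.132). With single samples left out it ranged from 1.21 without STZ replicate 1 to 2.54 without vehicle replicate 3, where DESeq2 called it (adjusted p = 0.0227), as it did in 1 of 6 such fits. Without replicate 1 of both groups it was 0.71, and limma on log2(TPM + 1) gave 0.89.

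Cp, ceruloplasmin (chromosome 3, 19956933 to 20009750), a copper ferroxidase that loads exported iron onto transferrin, had the same order of samples as Steap4. Its level was 4.51, 6.11 and 9.65 CPM in vehicle and 14.6, 12.9 and 9.06 CPM in STZ samples. As with Steap4, STZ replicates 1 and 2 were highest and vehicle replicate 3 lay just above STZ replicate 3. The means were 6.76 ± 2.63 and 12.2 ± 2.84 CPM (SD, n = 3 each), and the log2 fold change was 0.85 (SE 0.30, 95% interval 0.15 to 1.55). The adjusted p was 0.382 in edgeR and 0.079 in DESeq2. With single samples left out DESeq2 called it in 2 of 6 fits, those without vehicle replicate 3 (adjusted p = 0.000696) and without STZ replicate 3 (0.0419), and the others had adjusted p from 0.241 to 0.472. In edgeR the estimate was 0.62 without vehicle replicate 1 and 0.48 without replicate 1 of both groups, with adjusted p of 0.498 and 0.660. The Cp gene overlaps Hps3, whose reads amounted to up to 336% of those of Cp in a sample. With the Hps3 reads added the log2 fold change was 0.28. Hps3 had 814, 824 and 968 reads in vehicle and 895, 894 and 940 in STZ samples. Adding reads this even shrinks the estimate whether or not any were counted to the wrong gene. The value of 0.28 therefore cannot show how many were. The counting was not stated to use strand, so the Cp value is uncertain where the genes overlap.

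Markers of several other cells moved with Cp and Steap4. The 12 endothelial markers summed to 974.8 to 1182.7 CPM in vehicle and 943.3 to 1148.1 CPM in STZ, most of it Slco1c1 at a mean of 876.3 CPM. Without it, the other endothelial markers summed to 51.9, 72.0 and 178.2 CPM in vehicle and 320.1, 247.4 and 174.2 CPM in STZ samples. The order of samples was the one seen for Cp and Steap4, and 11 of 12 endothelial markers had higher estimates in STZ (median log2 fold change 1.07). The ependymal markers, from 65.4 to 178.2 CPM in vehicle and 132.3 to 223.4 CPM in STZ, also kept this order. Neutrophil markers summed to 167.9, 156.9 and 917.2 CPM in vehicle and 1028.3, 1192.2 and 508.8 CPM in STZ, again with vehicle replicate 3 above STZ replicate 3. The part of these cells in the Cp and Steap4 results was not tested.

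**Figure D3:**
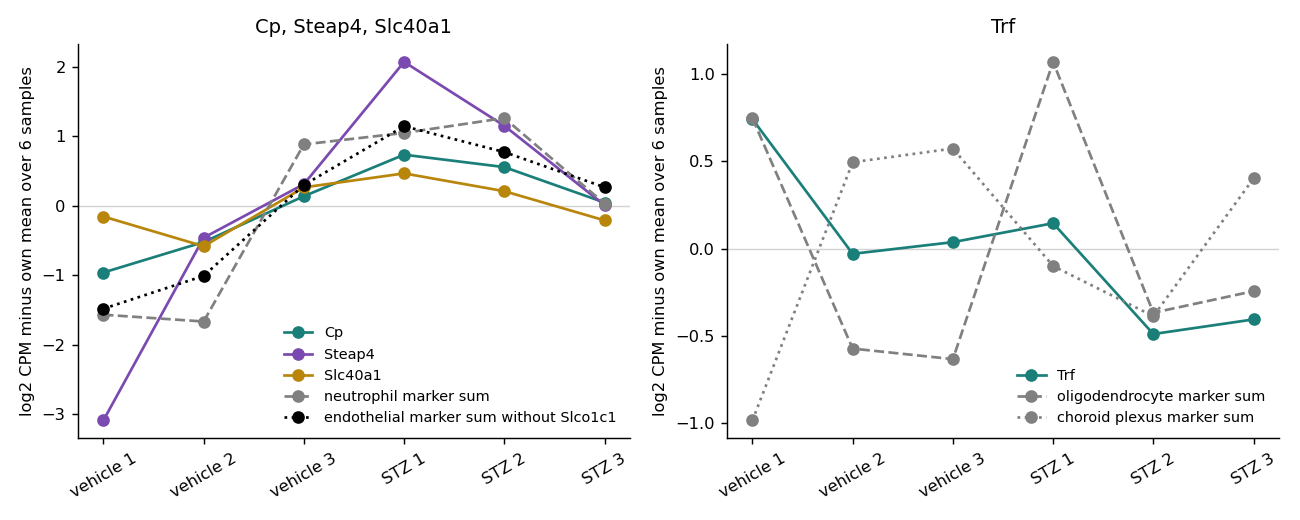
Levels in the 6 samples as log2 CPM minus the mean over the samples, for Cp, Steap4 and Slc40a1 with summed neutrophil markers and summed endothelial markers other than Slco1c1 (left) and for Trf with summed oligodendrocyte and choroid plexus markers (right); lines only join the points of one quantity. Cp and Steap4 have the same order of samples as the endothelial sum without Slco1c1, with vehicle replicate 3 just above STZ replicate 3, and Trf is highest within its group in the samples richest in oligodendrocyte markers.

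Slc40a1, ferroportin, the only known iron exporter of mammalian cells (chromosome 1, 45908070 to 45926532), had 16, 11.9 and 21.4 CPM in vehicle and 24.6, 20.6 and 15.4 CPM in STZ samples. The groups overlapped widely, and here too replicate 3 was the highest vehicle and the lowest STZ sample. The log2 fold change was 0.30 (SE 0.24, 95% interval -0.26 to 0.86, edgeR adjusted p = 0.663). Heph, hephaestin, the membrane-bound relative of ceruloplasmin (chromosome X, 96455436 to 96574485), had 31.4, 29.5 and 33.8 CPM in vehicle and 38.0, 31.0 and 30.3 CPM in STZ samples. Its groups overlapped too. Its log2 fold change of 0.068 had an interval from -0.19 to 0.32 (edgeR adjusted p = 0.847) and turned to -0.043 without STZ replicate 1. The genes that overlap Heph each had at most 3.88% of its reads. Of the 3 export genes, then, none passed in either tool, and Cp alone had an interval that excluded 0.

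Trf, transferrin, the iron carrier of plasma and brain fluid (chromosome 9, 103208876 to 103230286), was the most abundant member after the ferritins. It had 605.5, 354.9 and 371.7 CPM in vehicle and 400.7, 258.2 and 273.6 CPM in STZ samples. Replicate 1 was the highest in each group, and STZ replicate 1 lay above vehicle replicates 2 and 3. The means were 444.0 ± 140.1 and 310.8 ± 78.2 CPM (SD, n = 3 each), and the log2 fold change was -0.51 (SE 0.24, 95% interval -1.08 to 0.056). It did not pass in edgeR (adjusted p = 0.482) or DESeq2 (adjusted p = 0.267). Summed oligodendrocyte markers were 2870.7, 1151.6 and 1104.4 CPM in vehicle and 3590.2, 1327.5 and 1446.2 CPM in STZ samples, so the replicates richest in them were also those richest in Trf within each group. Between the groups the lowest and highest of these sums lay higher in STZ, whereas those of Trf lay lower. Without replicate 1 of both groups the log2 fold change was -0.45 (edgeR adjusted p = 0.444). Leaving out vehicle replicate 1 alone gave -0.23, and leaving out STZ replicate 1 alone gave -0.74. Summed choroid plexus markers were 6029.4, 16785.0 and 17722.4 CPM in vehicle and 11121.0, 9113.7 and 15740.6 CPM in STZ samples. All 7 had lower estimates in STZ, as Trf did (median log2 fold change -0.37), and 0 of 7 had an unadjusted p under 0.05. Their sum was lowest in vehicle replicate 1, where Trf was highest. The part of oligodendrocyte and choroid plexus RNA in the Trf level was not tested.

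Tfrc, the transferrin receptor (chromosome 16, 32608896 to 32632794), was nearly level across the samples. It had 103.2, 87.1 and 92.0 CPM in vehicle and 96.3, 90.2 and 99.0 CPM in STZ samples. The highest and the lowest values were both vehicle samples. The log2 fold change was 0.017 (SE 0.083), and its 95% interval from -0.18 to 0.21 bounds the change to well under 1.5-fold in either direction (edgeR adjusted p = 0.960). Its sign turned with single samples left out, as low as -0.050 without vehicle replicate 2.

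Slc11a2, the endosomal transporter DMT1 (chromosome 15, 100387898 to 100424209), had 49.4, 49.2 and 49.8 CPM in vehicle and 42.5, 44.1 and 42.9 CPM in STZ samples. Every STZ sample was below every vehicle sample, and the spread within groups, relative to the mean, was the smallest of the members. The means were 49.5 ± 0.303 and 43.2 ± 0.831 CPM (SD, n = 3 each). The difference was small, 1.15-fold, with a log2 fold change of -0.20 (SE 0.062, 95% interval -0.34 to -0.051). It passed neither threshold (edgeR unadjusted p = 0.0148, adjusted p = 0.345; DESeq2 adjusted p = 0.355). Whichever single sample was dropped, edgeR's estimate stayed between -0.21 and -0.19. Reads of the overlapping gene Gm5475 came to at most 1.09% of its count.

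**Figure D4:**
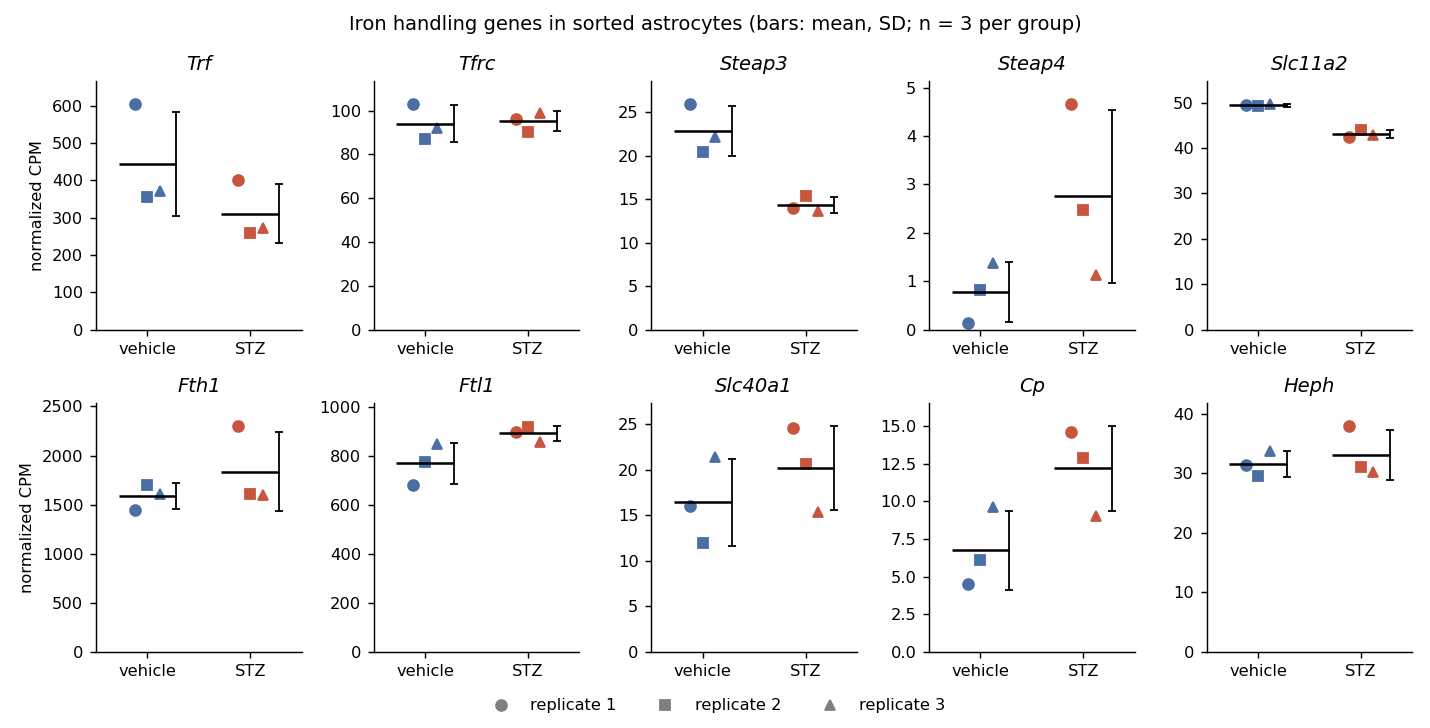
Normalized CPM of each member by group on axes that start at 0, with 1 point per sample (circle, square and triangle for replicates 1, 2 and 3), the mean as a black line and the SD beside it. Steap3 and Slc11a2 have all STZ points below the vehicle points, Ftl1 has all STZ points above, and the other members overlap.

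Fth1, the ferritin heavy chain, which oxidizes iron as it enters the shell (chromosome 19, 9980600 to 9985111), had 1441.4, 1703.6 and 1611.0 CPM in vehicle and 2303.2, 1606.6 and 1601.3 CPM in STZ samples. STZ replicate 1 stood apart above the rest, and the other STZ samples lay inside the vehicle range. The log2 fold change was 0.21 (SE 0.16, 95% interval -0.16 to 0.59, edgeR adjusted p = 0.640). Without STZ replicate 1, the sample with the highest oligodendrocyte marker sum, it was 0.017. In vehicle replicate 1, the vehicle sample richest in these markers, Fth1 was at its lowest.

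Ftl1, the light chain, which promotes iron mineral growth inside the shell (chromosome 7, 45457944 to 45459886), had 682.8, 776.9 and 848.5 CPM in vehicle and 899.3, 919.0 and 858.7 CPM in STZ samples. Every STZ sample exceeded every vehicle sample, though vehicle replicate 3 and STZ replicate 3 were close. The means were 769.4 ± 83.1 and 892.3 ± 30.7 CPM (SD, n = 3 each). The log2 fold change, 0.21 (SE 0.099, 95% interval -0.017 to 0.44), did not pass (edgeR adjusted p = 0.471, DESeq2 adjusted p = 0.433). The listed light-chain pseudogenes Ftl2-ps and Ftl1-ps1 took at most 2.68% and 3.93% of the Ftl1 count, and adding their reads gave 0.22.

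Ratios of members within a sample remove its depth. The Fth1 to Ftl1 ratio in TPM, the authors' other length-scaled unit, was 2.17, 2.26 and 1.95 in vehicle and 2.64, 1.80 and 1.92 in STZ samples. The STZ samples lay on both sides of the vehicle samples (difference in mean log2 ratio -0.024, exact permutation test, two-sided p = 0.90). Tfrc and ferritin mRNAs carry their iron-responsive elements at opposite ends, so their ratio was also taken. Tfrc TPM was 0.935%, 0.674% and 0.722% of summed ferritin TPM in vehicle and 0.581%, 0.692% and 0.775% in STZ samples. These groups overlapped as well (difference in mean log2 ratio -0.18, exact permutation test, two-sided p = 0.50). With 3 against 3 samples the smallest p this test can give is 0.1. The ratios concern mRNA, and the protein made from it was not measured in these samples.

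The wider pathway was read from a list of 64 other genes of iron and heme metabolism, 56 of which had reads in every sample. Neither edgeR nor DESeq2 called any of them (0 of 56). At an unadjusted edgeR p under 0.05 there were 7 of 56, 3 with higher and 4 with lower levels in STZ, against 11.3% of all genes tested. Groups did not overlap for 9 of 56, against 18.5% of all genes, and both counts lie near those shares. Positive estimates numbered 25 and negative ones 31, and the median log2 fold change was -0.016. Hamp and Hamp2, the hepcidin genes, and Hephl1 and Timd2 had no read in any sample, and Hjv, Tmprss6, Erfe and Ftmt had none in at least 1 sample.

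**Figure D5:**
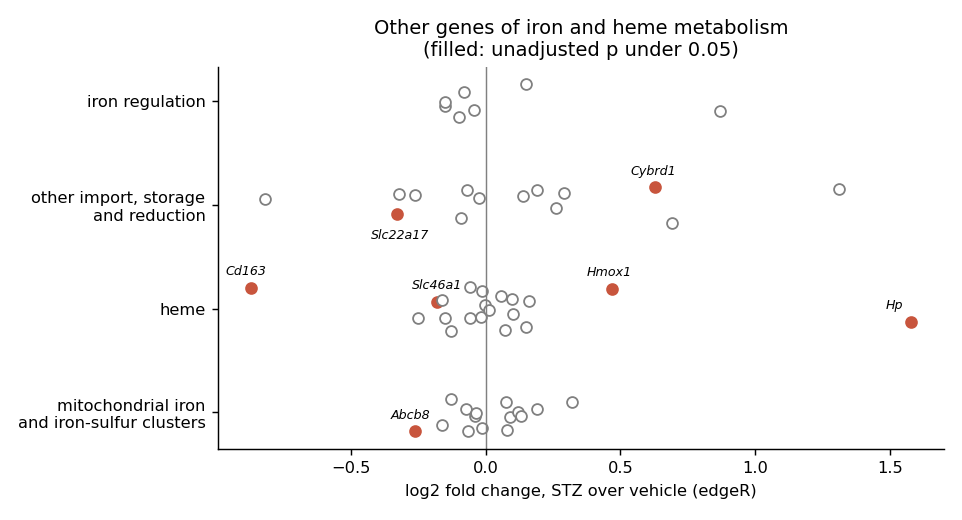
Log2 fold change of STZ over vehicle for the 56 other iron and heme genes, in 4 groups with points spread vertically for legibility; filled and named points have an unadjusted edgeR p under 0.05. Most points lie close to 0, and the named ones are 3 higher (Cybrd1, Hmox1, Hp) and 4 lower (Slc22a17, Slc46a1, Cd163, Abcb8) in STZ.

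Among the 12 regulators of iron balance 7 were tested, and 0 had an unadjusted p under 0.05. The most abundant were Fbxl5, which marks iron regulatory protein 2 for degradation (27.7 ± 1.45 FPKM, n = 6; log2 fold change -0.08), and Aco1, iron regulatory protein 1 (19.6 ± 1.1 FPKM, n = 6; -0.10). Their 95% intervals, -0.26 to 0.097 and -0.29 to 0.086, exclude a 1.5-fold change in either direction.

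Among 17 other genes of import, storage and reduction 14 were tested. Cybrd1, a ferric reductase, was 3.27 ± 0.243 CPM in vehicle and 5.04 ± 0.938 CPM in STZ (SD, n = 3 each), with groups that did not overlap (log2 fold change 0.63, edgeR adjusted p = 0.355). Slc22a17, a receptor for lipocalin 2, was 785.2 ± 79.1 and 624.9 ± 57.1 CPM, also without overlap but in the other direction (-0.33, edgeR adjusted p = 0.350). Pcbp1, a cytosolic iron chaperone that delivers iron to ferritin, was among the most abundant of the group (94.4 ± 6.33 FPKM, n = 6) and had a log2 fold change of -0.068. Ncoa4, the receptor that takes ferritin to the lysosome, was chosen after its values were seen and had 99.7 ± 2.93 and 98.0 ± 5.73 CPM (log2 fold change -0.024, edgeR adjusted p = 0.920). The other STEAP genes, likewise singled out afterwards, had estimates below 0 with wide spread: Steap1 went from 43.3 ± 17.9 to 34.7 ± 6.66 CPM and Steap2 from 31.7 ± 9.24 to 26.5 ± 5.31 CPM (edgeR adjusted p = 0.729 and 0.703).

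Among 20 genes of heme handling, Hmox1, the inducible heme oxygenase that frees iron from heme, was 10.2, 11.3 and 12.1 CPM in vehicle and 14.6, 16.5 and 15.3 CPM in STZ samples. All STZ samples were above all vehicle samples. Its log2 fold change was 0.47 (SE 0.12), with an adjusted p of 0.288 in edgeR and 0.0454 in DESeq2, and it stayed under the 1.5-fold threshold. Slc46a1, which moves heme and folate, was 135.8 ± 4.34 and 119.9 ± 2.94 CPM (SD, n = 3 each; -0.18, edgeR adjusted p = 0.375), and Slc48a1, a lysosomal heme transporter, was at 147.3 ± 6.35 FPKM (n = 6; -0.056, edgeR adjusted p = 0.816). Cd163, the macrophage receptor for hemoglobin bound to haptoglobin, was 4.19 ± 0.794 and 2.29 ± 0.819 CPM (-0.87, edgeR adjusted p = 0.367). It ran alongside the border macrophage sums given for Steap3, whose part here was not tested either.

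Hp, haptoglobin, and Lcn2, lipocalin 2, which binds iron-carrying siderophores, were singled out after their values were seen. Hp had 7.03, 14.5 and 40.8 CPM in vehicle and 83.5, 75.5 and 28.3 CPM in STZ samples. Lcn2 had 11.2, 9.54 and 64.3 CPM in vehicle and 83.7, 87.2 and 40.1 CPM in STZ samples. Both repeated the overlap at replicate 3 that Cp and Steap4 showed, with log2 fold changes of 1.58 and 1.31 (edgeR adjusted p = 0.425 and 0.528). Hp had the order of samples of Cp and Steap4, and Lcn2 that of the summed neutrophil markers. Those sums were 167.9, 156.9 and 917.2 CPM in vehicle and 1028.3, 1192.2 and 508.8 CPM in STZ samples. All 6 neutrophil markers had higher estimates in STZ (median log2 fold change 1.15), and 0 had an unadjusted p under 0.05. The part of neutrophil RNA in the Hp and Lcn2 results was not tested.

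Among 15 genes of mitochondrial iron and iron-sulfur cluster assembly, 1 had an unadjusted p under 0.05. Abcb8, a mitochondrial transporter, was 94.3 ± 5.53 and 78.8 ± 2.53 CPM (SD, n = 3 each; log2 fold change -0.26, edgeR adjusted p = 0.301), with groups that did not overlap. The most abundant of the group, the scaffold gene Iscu (86.6 ± 10.7 FPKM, n = 6) and the assembly factor Isca2 (78.9 ± 4.25 FPKM, n = 6), had log2 fold changes of 0.092 and -0.036. All 15 estimates lay between -0.26 and 0.32.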

How the data were processed

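RNA sequencing of tdTomato-positive astrocytes was analysed in 3 vehicle and 3 STZ samples, grouped by treatment label. Per the sources, cells were dissociated and sorted, and poly-A RNA libraries were made with a SMART-Seq kit (the methods also name TruSeq). The submitters' processing notes name bcl2fastq 2.20.0, Trimmomatic 0.38, HISAT2 2.1.0, SAMtools 1.9, StringTie 2.1.3b and mm10. The authors deposited whole-number read counts per gene, not normalized, beside FPKM and TPM values they computed per sample. Strand use in counting is not given in the sources used here.

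Counts were tested with edgeR 4.0.16 (R 4.3.3; TMM, quasi-likelihood, group only, two-sided) over genes with no 0 count in any sample, adjusted by Benjamini-Hochberg over all of them. CPM values shown are TMM-normalized. The alternatives were DESeq2 1.42.0, its size factors in edgeR, no filter, filterByExpr, the replicate block, limma 3.58.1 on log2(TPM + 1) and log2(TPM + 0.1), no fold threshold, and leaving out each sample. DESeq2 with the block or with samples left out, both replicates 1 left out, and overlapping reads added were chosen after seeing the data. Positions are RefSeq's for GRCm38.p6, to which all 10 members matched by gene number. The scripts were tested on simulated data.

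The members, lists and tests were chosen with earlier results of these data known. Beyond the members, genes were named when called, when they had an unadjusted edgeR p under 0.05 without overlap, or when among the 2 highest by FPKM of their group. Exceptions are said in the text. Sequencing depth limits only the lowest genes, and replicate spread sets the error elsewhere.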

Additional observations from a re-analysis of the deposited data

How the results depend on the processing

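Each member was refitted under 22 alternatives (220 values). Of these, 200 kept the direction and the side of the threshold, 10 passed it, all in DESeq2 (7 for Steap3, 2 for Cp, 1 for Steap4), and 10 turned sign, all near 0. With single samples left out Heph ranged up to 0.13 in edgeR and 0.12 in DESeq2, and Tfrc up to 0.084 and 0.091. Heph turned to -0.043 (edgeR) and -0.047 (DESeq2) without STZ replicate 1, and to -0.049 without replicate 1 of both groups, where Fth1 was -0.048. Tfrc turned to -0.050 and -0.041 without vehicle replicate 2, to -0.014 and -0.013 without vehicle replicate 3, and to -0.012 and -0.022 without STZ replicate 3 (edgeR and DESeq2). The Fth1 to Ftl1 ratio, -0.024 in log2, ranged from -0.19 to 0.083 with single samples left out, and turned to 0.020 without vehicle replicate 2, 0.083 without STZ replicate 2 and 0.037 without STZ replicate 3. The cause was not tested.

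Over all genes, 5 were called by edgeR, 234 by DESeq2, 0 with the replicate block in edgeR (1793 at an unadjusted p under 0.05), and 0 by limma with either pseudocount (2635 and 2612). With samples left out edgeR called 0 to 1. Of the members, DESeq2 called 1, and 1 with the replicate block; with each sample left out it called 0 to 3, with 3 without vehicle replicate 3, 2 without STZ replicate 3 and 0 without vehicle replicate 1. Members whose groups did not overlap numbered up to 5, without vehicle replicate 3 or STZ replicate 3. The same-numbered samples did not vary together (correlations of -0.101, -0.162 and -0.184 for replicates 1, 2 and 3) and came from different mice, so the numbers were not taken as pairs. The block changed no call of a member in edgeR. With it in DESeq2, Trf had an adjusted p of 0.000805 at a log2 fold change of -0.50, under the fold threshold.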
